A study of Mus musculus with 2 samples.

Results

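The complement component genes examined here were C1qa, C1qb, C1qc, C3, C4b, Serping1 and Cfp, 7 genes taken by name from a fixed list, all 7 of which were among the 15169 genes of the deposited expression table. They were followed across the 18 deposited cell types in droplet single-cell RNA sequencing of mouse kidney. There were 2 libraries. The control library came from normal kidney of a wild-type C57BL/6 mouse of 9 weeks. The IRI library came from a wild-type C57BL/6 mouse of the same age after ischaemia-reperfusion injury of 1 kidney with removal of the opposite kidney, so the injured kidney worked alone. Neither the time after injury nor the number of animals pooled per library is given in the sources used here. With 1 library per group there was no replicate, and every difference below is a difference between these 2 libraries, without a test.

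Complement is a protein cascade of innate immunity. In the classical pathway C1q, a hexamer of triplets of its A, B and C chains, recognises bound antibody, dying cells and other surfaces, and its partner proteases cleave C4 and C2. All pathways meet at C3, whose cleavage coats surfaces with C3b and releases the anaphylatoxin C3a. C3 in plasma comes mostly from liver, while C1q comes mostly from macrophages and dendritic cells, and injured tubules are a known local source of C3. Properdin, encoded by Cfp, stabilises the convertase of the alternative pathway. C1 inhibitor, encoded by Serping1, blocks the C1 and lectin-pathway proteases, and C4b encodes C4.

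The libraries held 6589 control and 5170 IRI cells with 24169073 and 16816996 raw UMIs (unique molecular identifiers, each standing for 1 captured transcript), and medians of 2344 and 1888.5 per cell. Levels are given as the mean corrected count per cell, that is, UMI counts that the authors' normalisation had brought to a common depth. A cell of few UMIs has its single UMI scaled up and a deep cell can have its single UMI scaled down to 0. Ratios are log2 of the IRI mean over the control mean after 0.05 was added to each, which understates changes of low genes. They were taken where both libraries had 20 or more cells of a type. The C1q ratio of Cx3cr1+ macrophages, which had 19 IRI cells, was an exception. The 95% interval given with a share of cells is exact (Clopper-Pearson) and covers counting error only. The libraries shared 55 cell barcodes. Without those cells the ratios of C1q and Cfp in macrophages, C3 and C4b in proximal tubule S1 to S3, and C3 and Serping1 in myofibroblasts stayed within 1.5-fold of their values.

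The 7 genes fell into separate cellular compartments, as the map of mean levels by cell type shows. C1qa, C1qb and C1qc were macrophage genes in both libraries, and C3 in the IRI library was mainly a proximal tubule gene. Most corrected counts of Serping1 were held by the type named myofibroblast. Cfp was highest by mean level in the macrophage type named Ccr2+, and C4b was low everywhere.

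**Figure D1:**
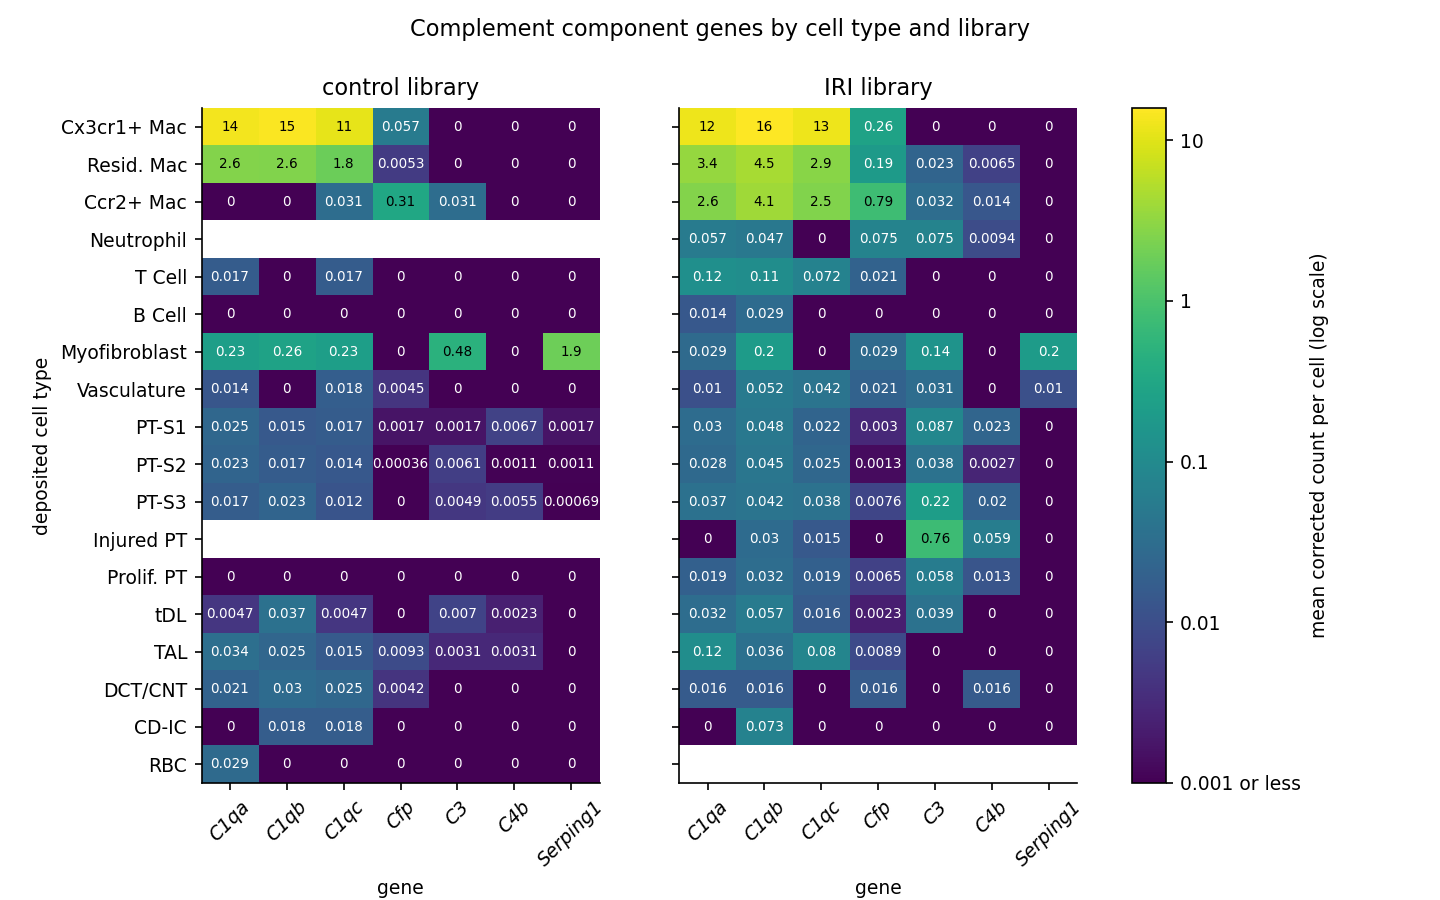
Mean corrected count per cell (colour, log scale, and printed value) of the 7 genes (columns) in the 18 deposited cell types (rows) of the control and IRI libraries. White rows are types with no cell or at most 4 cells in that library. The C1q genes are brightest in the macrophage rows, C3 in the myofibroblast row of control and the injured proximal tubule (PT) row of IRI, where its mean was 0.763.

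The 3 C1q genes were read first, by macrophage type. Macrophages named Cx3cr1+ had the highest C1q in both libraries. Their mean corrected counts in control and IRI were 13.5 and 12.3 for C1qa. For C1qb they were 14.9 and 16.0, and for C1qc 11.1 and 12.6. All 106 control cells and all 19 IRI cells of this type had counts of all 3 genes. The summed C1q level of the type was 39.6 in control and 40.9 in IRI, and the cells of the libraries overlapped widely, with medians of 38 and 36. What differed was the number of such cells, 1.61% of the control library and 0.368% of the IRI library. A share of captured cells in 1 digest per group cannot be told apart from a difference in how many cells the digest released.

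Resident macrophages were the largest macrophage type, with 188 control and 306 IRI cells. Their C1qa mean was 2.60 in control and 3.40 in IRI, C1qb 2.55 and 4.53, and C1qc 1.78 and 2.86. The summed level was 6.94 in control and 10.8 in IRI, a log2 ratio of 0.63, and the medians per cell lay close together at 5.5 and 6. The difference was in the upper range: 25.5% of control cells (19.5 to 32.4%) and 35.3% of IRI cells (29.9 to 40.9%) had a summed value of at least 10, and the highest cells stood at 44 and 91. Cells with none of the 3 genes numbered 36 of 188 in control and 72 of 306 in IRI. These cells were shallow, with median raw UMIs of 599.5 and 799.5, so that a missing C1q transcript says little. Among resident cells with at least 1000 raw UMIs the summed level was 6.26 in 19 control cells and 17.5 in 114 IRI cells.

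The label resident macrophage was checked against marker genes. The 5 macrophage markers (Csf1r, Cd68, Adgre1, Lyz2 and Fcgr1) summed to 1.39 per cell in control and 4.69 in IRI, with all 5 detected in each library. The 7 proximal tubule markers summed to 17.8 in control and 4.76 in IRI, and 6 of 7 were detected in control, with Slc5a12 at 0. Tubule markers thus exceeded macrophage markers in the control cells of this type, and their part in the C1q difference was not tested. Within control resident cells, the 152 with C1q and the 36 without had similar tubule marker levels, 18.0 and 16.6, and macrophage marker levels of 1.70 and 0.111. Apoe, a lipid carrier made by many macrophages, had means of 3.16 and 0.75 in these cells. In IRI resident cells Apoe was 4.26 in the 234 cells with C1q and 0.917 in the 72 without, while Plac8, a gene of recruited monocytes, was 0.115 and 0.917.

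Macrophages named Ccr2+, after the receptor that draws monocytes out of blood, gave the widest contrast between libraries. Their 32 control cells held a single C1q count in total, a C1qc count, despite a median of 6192 raw UMIs. In the IRI library 217 cells of the type had means of 2.59 for C1qa, 4.06 for C1qb and 2.54 for C1qc, at a median of 7177 raw UMIs. The IRI cells were spread very unevenly. No C1q was found in 136 of them, 26 had summed values of 1 to 9, 29 had 10 to 29, and 26 had 30 or more, up to 111. Cells at 10 or above were 25.3% of the IRI type (19.7 to 31.7%) and 0 of 32 in control, where the interval reaches 10.9%. The upper part of the IRI cells thus lay in the range of the Cx3cr1+ type, while the majority had none, like 31 of the 32 control cells, as the plot of single cells shows. The control cells of this type also carried more of the 5 dendritic cell markers, a mean sum of 3.12 with only Ccr7 at 0, against 0.382 in IRI with none at 0. The part of that difference in makeup in the C1q contrast was not tested.

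**Figure D2:**
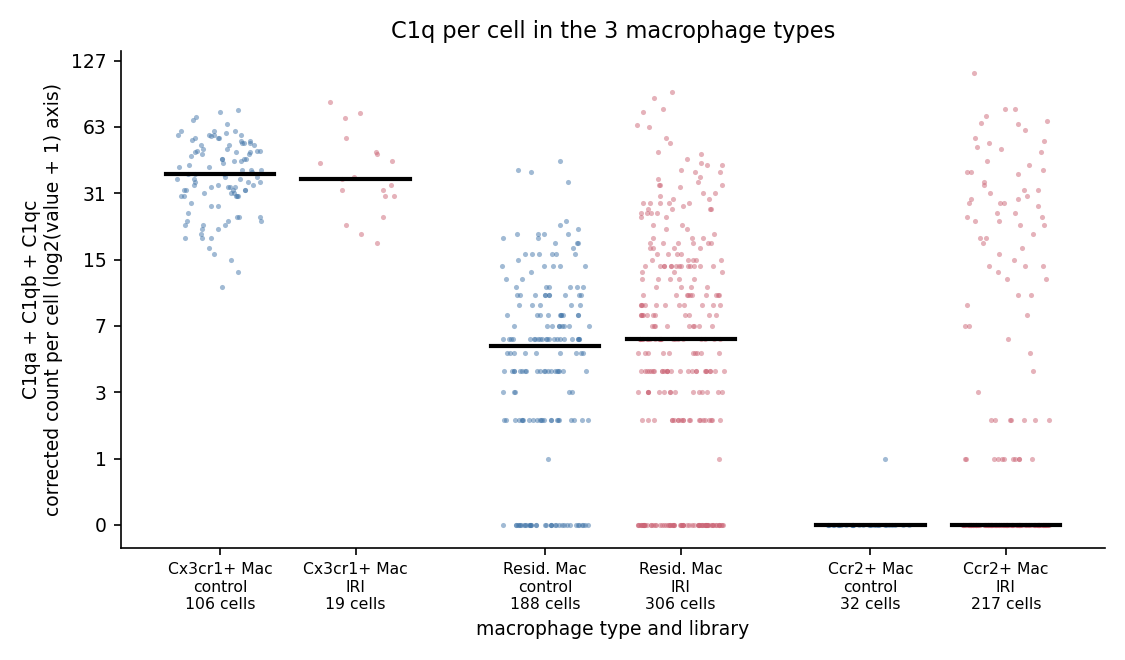
Summed C1qa, C1qb and C1qc corrected count of every macrophage (points, log2(value + 1) axis) by deposited type and library; black bars are medians. Cx3cr1+ cells sit high in both libraries, resident cells range widely, and the IRI Ccr2+ cells run from 0 in 136 of 217 cells up to 111 while the control Ccr2+ cells are at 0 or 1.

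Ccr2+ cells of the IRI library with a C1q value of at least 10 (55 cells, median 8983 raw UMIs) were set beside those with none (136 cells, median 6889.5). Mrc1, the mannose receptor of tissue macrophages, had a mean of 0.964 in the first and 0.0662 in the second. Apoe was 21.1 and 5.68, the lysosomal marker Cd68 was 1.75 and 0.588, and Adgre1, which encodes F4/80, was 0.364 and 0.154. The monocyte genes Plac8 and Ly6c2 ran the other way: Plac8 was 1.69 and 7.60, and Ly6c2 was 0.145 and 0.831. The other macrophage and monocyte markers are not given for this split. The dendritic cell markers were at 0 in all 55 C1q-high cells and summed to 0.588 in the others. C1q-high Ccr2+ cells thus carried more Mrc1, Apoe, Cd68 and Adgre1 and less Plac8 and Ly6c2 than cells of the same cluster without C1q. Among cells with at least 5000 raw UMIs these genes kept their order, with Mrc1 at 1.02 in 48 C1q-high cells and 0.0833 in 96 without C1q, and Plac8 at 1.92 and 8.54. Arg1, the arginase of the study's title, was found in 17 of the 55 and in 31 of the 136, with means of 1.31 and 2.11.

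Over the 3 macrophage types together the picture depended on the mix of types. The pooled mean of C1qa was 5.90 in 326 control cells and 3.39 in 542 IRI cells, that of C1qb 6.32 and 4.75, and that of C1qc 4.64 and 3.07. The pooled summed log2 ratio was -0.59, lower in IRI, although resident cells alone gave 0.63 and Cx3cr1+ cells alone 0.048. With the IRI types weighted by the control library's makeup, a comparison added after seeing the data, the ratio was 0.27. The sign of the pooled difference thus turned with the makeup, and with cells of at least 1000 raw UMIs it was -1.02. In the pooled macrophages 1 of 5 measured members, Cfp, passed 2-fold higher in IRI, against 2.46% of all measured genes, and none passed lower, against 2% of all.

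The cells that held the C1q transcripts changed between the libraries more than their total did. Macrophages held 93.9% of the control library's C1q counts and 92.5% of the IRI library's. In control, 71.6% were in Cx3cr1+ and 22.3% in resident macrophages. In IRI, 11.8% were in Cx3cr1+ cells, 50.3% in resident and 30.4% in Ccr2+ cells. These shares weigh every cell alike. Weighted by raw UMIs, resident cells held 7.37% in control and 30.3% in IRI and Ccr2+ cells held 53.1% in IRI, with Ccr2+ cells at a median of 7177 raw UMIs and resident cells at 799.5.

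**Figure D3:**
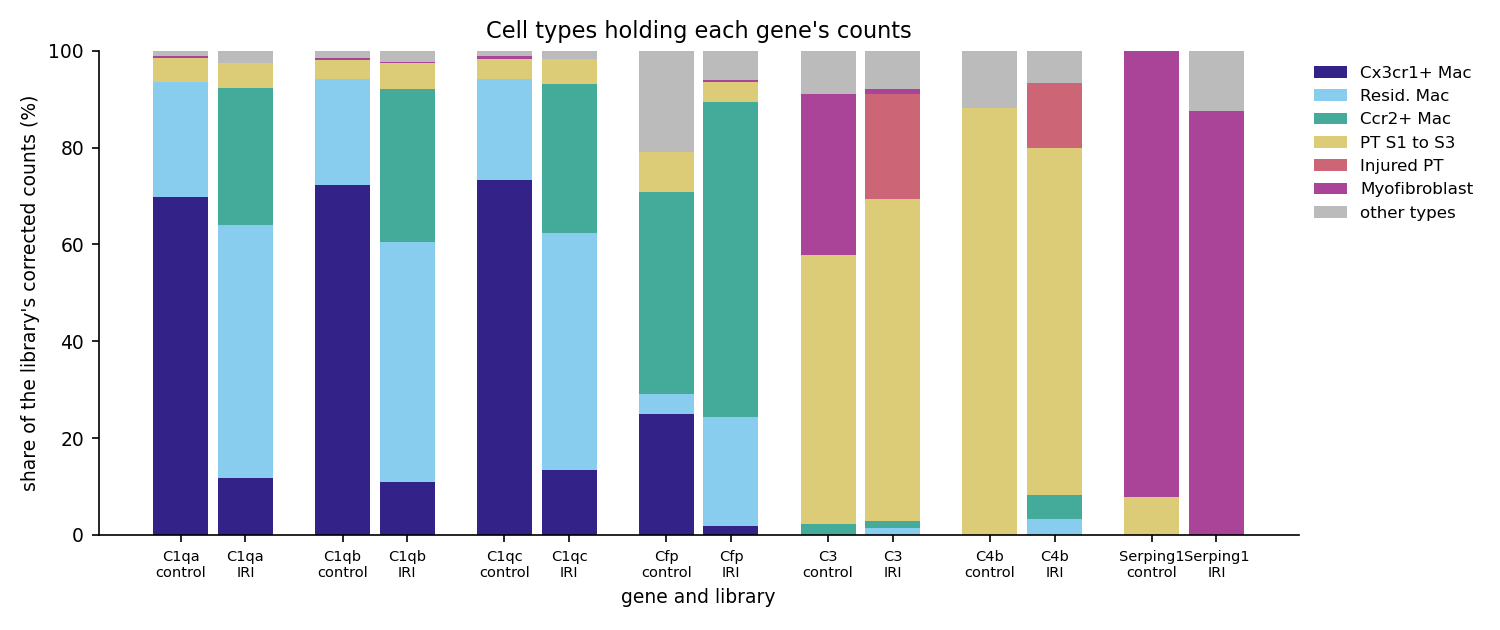
Share of each library's corrected counts of a gene (percent, stacked bars from 0) held by the named cell types. The C1q bars pass from mostly Cx3cr1+ macrophages in control to resident and Ccr2+ macrophages in IRI. Cfp is held mostly by macrophages, C3 by proximal tubule (S1 to S3 and injured) with myofibroblasts in control, and Serping1 by myofibroblasts.

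Outside macrophages C1q was low. In proximal tubule segments S1 to S3, the C1qa mean was 0.0213 (control) and 0.0307 (IRI), and 199 of 4827 control cells and 266 of 3261 IRI cells had any of the 3 genes. Only 1 of those IRI cells and 0 of the control cells had all 3. B cells, not a known source of C1q, had 3 positive of 69 in IRI and 0 of 27 in control. IRI T cells had 15 positive of 97, in 14 of which only 1 of the 3 genes was found and 1 of which stood at 16. The 5 macrophage markers, all detected in tubule cells of each library, summed there to 0.0236 in control and 0.176 in IRI, and the part of free RNA in these low values was not tested. Control myofibroblasts had a summed C1q mean of 0.71 from 5 of 31 cells. Their macrophage markers summed to 0.0645, with Csf1r and Lyz2 detected and Cd68, Adgre1 and Fcgr1 at 0. The part of macrophage RNA in that C1q was not tested.

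The C1q genes lie side by side. In the RefSeq order of protein-coding genes on chromosome 4 they follow each other as C1qb, C1qc and C1qa. Their levels went together across 13 cell types in both libraries (26 points). Cx3cr1+ macrophages, the type with the highest C1q, were not among the 13, as the IRI library held only 19 of them. Pearson's r was 0.96 for C1qa with C1qb, 0.98 for C1qa with C1qc and 0.95 for C1qb with C1qc. These values are a description over points that share libraries and depth. The 250 bases before the start of C1qb and C1qc are shown because these genes were high in the same cells, and those of C3 because it was high in others. They are printed 5′ to 3′ on the minus strand of GRCm38.p6 from RefSeq, a build other than that of the expression data: chr4:136886201-136886450, chr4:136892915-136893164 and chr17:57228137-57228386. RefSeq windows were found for 4 of the 7 genes. Capitals mark the motif matches described below.
C1qb: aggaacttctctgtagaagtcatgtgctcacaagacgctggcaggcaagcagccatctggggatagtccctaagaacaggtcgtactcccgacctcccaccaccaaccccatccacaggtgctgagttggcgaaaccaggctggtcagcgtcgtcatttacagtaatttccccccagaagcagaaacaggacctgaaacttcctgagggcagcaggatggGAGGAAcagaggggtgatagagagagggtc
C1qc: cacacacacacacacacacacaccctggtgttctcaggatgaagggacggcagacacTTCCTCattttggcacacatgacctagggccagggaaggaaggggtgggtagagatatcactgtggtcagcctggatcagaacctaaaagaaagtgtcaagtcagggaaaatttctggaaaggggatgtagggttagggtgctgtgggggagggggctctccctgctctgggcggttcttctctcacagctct
C3: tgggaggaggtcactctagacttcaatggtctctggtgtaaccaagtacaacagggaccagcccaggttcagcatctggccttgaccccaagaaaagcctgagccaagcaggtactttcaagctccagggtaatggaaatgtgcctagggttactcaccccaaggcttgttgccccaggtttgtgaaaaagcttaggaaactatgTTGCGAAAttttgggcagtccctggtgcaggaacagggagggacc

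The letters GAGGAA, the core bound by PU.1, the master transcription factor of macrophages, were searched on both strands of these windows. C1qb had 1 match on its own strand at position -30 from the gene start, and C1qc had 1 on the other strand, read here as TTCCTC, at -193. The core is common, in 23.3% of 32817 windows of the same length. It was not in the C3 window. The C3 window held 1 match to the C/EBP pattern TTGCNNAAN at -45, read as TTGCGAAA, and 9.55% of all windows held that pattern. No window of the 3 matched the interferon-response pattern (TTTC, any 2 bases, TTTC; 2.97% of all windows), the NF-kB pattern (GGG, any 3 bases, TTCC; 4.65%) or the STAT pattern TTCNNNGAA (7.01%). None of these motifs overlapped. A match of letters describes the sequence and shows no binding.

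C3, the convergence point of the cascade, had a different source. In proximal tubule segments S1 to S3 its mean was 0.00518 in control, from 25 of 4827 cells, none above 1. In IRI it was 0.0966, from 217 of 3261 cells, with a highest value of 7. The ratio of means was 18.7 and the log2 ratio 1.41. C3 alone of the 6 measured members was past 2-fold in these segments, where 0.41% of all measured genes were that much higher in IRI and 0.762% lower. The control cells were the deeper ones, with median raw UMIs of 2738 against 1819.

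Cells with a C3 UMI were read from the deposited residuals, which part cells with and without a UMI of this gene. There were 67 of 4827 in control, 1.39% (1.08 to 1.76%), and 309 of 3261 in IRI, 9.48% (8.49 to 10.5%), and the intervals lay far apart. Among cells of 2000 to 4000 raw UMIs the shares were 10 of 867, or 1.15%, and 50 of 630, or 7.94%, so the contrast was as wide at matched depth. Per 1000000 raw UMIs, 3.45 control and 31.0 IRI cells carried C3. This rate counts positive cells, not C3 UMIs, so it understates types in which a large share of cells is positive. B cells, which served as a type without C3, had 0 of 69 in IRI at a median of 2062 UMIs, with an interval that reaches 5.21%. Thick ascending limb cells had 0 of 112 and distal tubule cells 0 of 63 in IRI, the latter at a median of 4472 UMIs. Not all other tubule types were at 0. Thin descending limb cells of IRI had 18 of 440, 4.09% (2.44 to 6.39%). Collecting duct intercalated cells of IRI had 3 of 55, 5.45% (1.14 to 15.1%).

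The proximal segments did not carry C3 alike. In S1 the UMI share was 3 of 600 control cells and 132 of 989 IRI cells, 13.3% (11.3 to 15.6%). In S2 it was 39 of 2785 and 49 of 1482, 3.31% (2.46 to 4.35%). In S3, the straight segment of the outer medulla, it was 25 of 1442 and 128 of 790, 16.2% (13.7 to 19.0%). Log2 ratios of the mean were 1.41 in S1, 0.66 in S2 and 2.29 in S3, against 0.675%, 0.234% and 1.09% of all measured genes past 2-fold higher. With 1 and 7 control counts in S1 and S3, C3 was measured there only through the IRI library. Nothing is read from its passing in them. S2 cells were also the shallowest, with a median of 912 UMIs in IRI against 4716 in S1 and 2338.5 in S3. Per 1000000 raw UMIs, 26.0, 21.2 and 49.6 IRI cells of S1, S2 and S3 carried C3, so S1 and S2 lay closer on that scale while S3 stayed highest. By deposited cluster, IRI cells of S1 cluster 5 had C3 in 105 of 501 cells and those of S1 cluster 6 in 26 of 479, at median raw UMIs of 7026 and 2992.

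**Figure D4:**
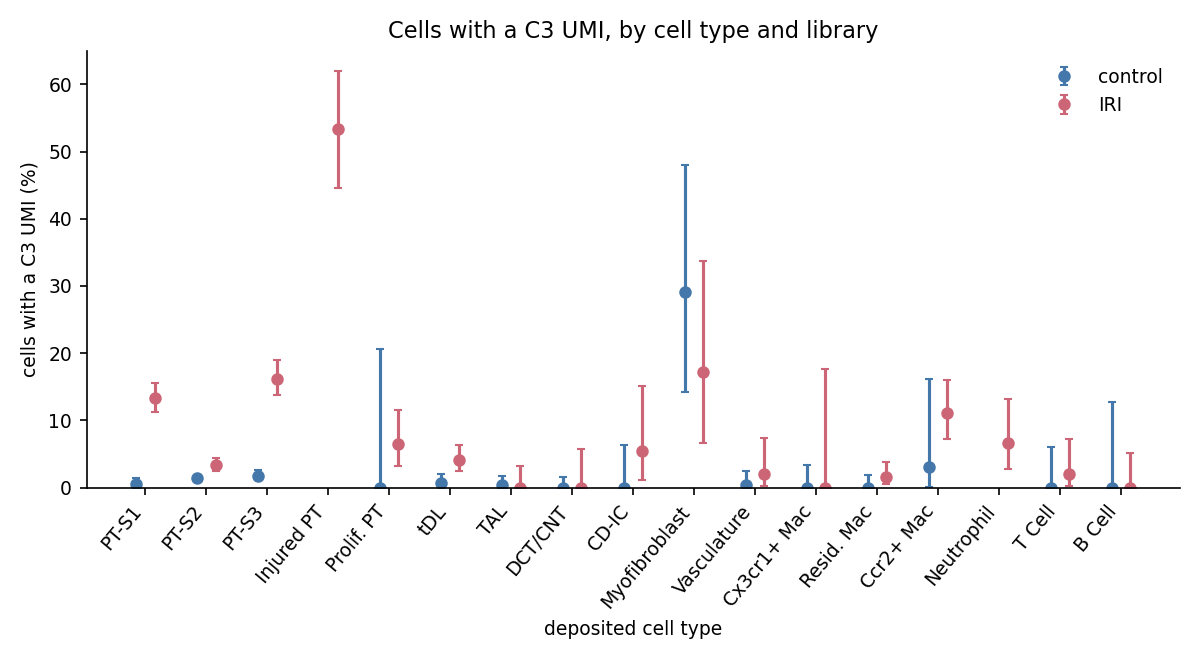
Percent of cells with a C3 UMI by deposited cell type in the control and IRI libraries (points, with exact 95% intervals as bars); types with fewer than 10 cells in a library have no point. Injured proximal tubule stands at 53.3%, IRI S3 at 16.2% and IRI S1 at 13.3%, above every control tubule type. B cells, thick ascending limb and distal tubule of IRI are at 0. Thin descending limb and collecting duct intercalated cells of IRI stand at 4.09% and 5.45%.

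The type named injured proximal tubule, found only in the IRI library, had the highest C3. Its 135 cells had a mean of 0.763, and 72 had a C3 UMI, 53.3% (44.6 to 62.0%). The type was deep, with a median of 8267 raw UMIs, and per 1000000 raw UMIs 66.5 of its cells carried C3. Injured-tubule markers (Havcr1, Krt20, Sox9, Vcam1 and Lcn2) summed to a mean of 2.15 in it, and all 5 were detected. Within the type, cells with and without C3 had means of 1.88 and 0.714 for Havcr1, the kidney injury molecule, 0.764 and 0.27 for the adhesion molecule Vcam1, and 47.4 and 28.2 for Spp1, which encodes osteopontin. Their median raw UMIs were 8745.5 and 6954.

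C3 also lay with injury genes inside the segments that kept a normal name. Among IRI S3 cells the 128 with C3 had means of 0.656 for Havcr1 and 0.18 for Vcam1, against 0.11 and 0.0317 in the 662 without. Kap, an abundant transcript of differentiated proximal tubule, was 29.1 and 29.3. The cells with C3 were deeper, 4611 against 2015 median UMIs. In S1 to S3 cells held to 2000 to 4000 UMIs, 50 with and 580 without C3 differed little in depth, 2849.5 against 2772. In them Spp1 was 18.0 and 4.54 and Havcr1 0.26 and 0.0534. Cfb, which encodes factor B, the alternative-pathway protease that joins C3b, was 0.16 and 0.0517. Spp1, Havcr1 and Cfb were thus higher in the cells with C3 at matched depth. Segment was not matched, as S3 gave 31 of the 50 cells with C3 and 210 of all 630. The part of segment in these differences was not tested.

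C3 outside the proximal tubule was read next. Myofibroblasts had the highest control mean, 0.484 from 8 of 31 cells, and 0.143 from 5 of 35 in IRI, a log2 ratio of -1.47. Their cells with a UMI were 9 of 31 and 6 of 35, with intervals of 14.2 to 48.0% and 6.56 to 33.6% that overlapped. Per 1000000 raw UMIs these were 92.5 and 58.8 cells, and the IRI value lay between S3 and injured proximal tubule. Ccr2+ macrophages of IRI had a C3 UMI in 24 of 217 cells, 11.1%. They were deep, and their 14.6 per 1000000 raw UMIs was below the IRI segments S1, S2 and S3. At 2000 to 4000 UMIs they had 3 of 40 (1.57 to 20.4%). In that range IRI S1 had 10 of 227 (2.13 to 7.95%), S2 9 of 193 (2.15 to 8.67%) and S3 31 of 210 (10.3 to 20.3%). Each of these intervals overlapped that of Ccr2+ cells, so the rate does not order the types. Neutrophils had C3 in 7 of 106 IRI cells, 43.3 per 1000000 raw UMIs and so above S1 and S2, and the control library had 2 cells of the type. Cx3cr1+ macrophages, the type richest in C1q, had no C3 UMI in 106 control or 19 IRI cells, with intervals that reach 3.42% and 17.6%. The cells with the most C1q and those with the most C3 were thus of different types. Of the IRI library's 474 C3 counts, S1 to S3 held 66.5% and injured cells 21.7%, or 55.7% and 35.5% weighted by raw UMIs. The control library had 45 C3 counts, 55.6% in S1 to S3 and 33.3% in myofibroblasts.

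Properdin, made by myeloid cells, was mainly a macrophage transcript. Mean Cfp was 0.0521 in control macrophages and 0.434 in those of IRI, a log2 ratio of 2.24, and macrophages held 70.8% of 24 control counts and 89.4% of 263 IRI counts. By mean level Ccr2+ cells were highest, at 0.312 and 0.788. A Cfp UMI was found in 13 of 32 control cells of that type, 40.6% (23.7 to 59.4%), and in 125 of 217 IRI cells, 57.6% (50.7 to 64.3%), and these intervals overlapped. Resident cells had a UMI in 1 of 188 control cells and 45 of 306 IRI cells, 14.7% (10.9 to 19.2%), with means of 0.00532 and 0.193. Per 1000000 raw UMIs, 91.2 resident and 75.9 Ccr2+ IRI cells carried Cfp. That rate counts positive cells, not Cfp UMIs, and so runs low in deep types with many positive cells. Median raw UMIs were 7177 in IRI Ccr2+ and 799.5 in IRI resident cells, so it does not order the 2 types. At 2000 to 4000 UMIs the shares were 5 of 14 (12.8 to 64.9%) and 10 of 40 (12.7 to 41.2%), with overlapping intervals. The 4 Ccr2 monocyte markers also differed in resident cells, 0.0798 in control, with Chil3 at 0, and 0.52 in IRI, with none at 0, and their part in the Cfp difference was not tested. Of the Cx3cr1+ cells, 5 of 106 in control and 6 of 19 in IRI held Cfp. Neutrophils of IRI held it in 8 of 106 cells, 7.55% (3.31 to 14.3%), and the control library had 2 cells of that type. In proximal tubule the share was 0.311% and 0.828%. Cfp was the 1 of 4 measured members past 2-fold higher in resident macrophages, where 6.61% of all measured genes were. It had 1 control count there and so was measured only through the IRI library, and nothing is read from its passing. Its log2 ratio there was 2.13, or 3.73 and 0.94 with 0.01 and 0.2 added to each mean. In Ccr2+ cells Cfp passed too, where 12.5% of all did. The C1q genes, with 0, 0 and 1 control counts there, were measured only through the IRI library, so nothing is read from their passing.

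C1 inhibitor was mainly a stromal transcript. The Serping1 level was 1.90 in 31 control myofibroblasts and 0.20 in 35 from IRI, a log2 ratio of -2.97. The control level came from 11 cells, 3 of which held 74.6% of the 59 counts. In IRI 7 cells had 1 count each. Without the highest cell of each library the ratio was -2.74. The share of cells with a Serping1 UMI differed less, 11 of 31 (19.2 to 54.6%) against 8 of 35 (10.4 to 40.1%), with overlapping intervals. Among cells of at least 1000 raw UMIs it was 38.5% and 36.4%. Myofibroblasts held 92.2% of the 64 control and 87.5% of the 8 IRI counts of Serping1. By UMI their part was smaller, 11 of 18 positive cells in control, where 6 were in S1 to S3. In IRI it was 8 of 12, with 2 in Ccr2+ macrophages and 2 in vasculature. Of the 3 measured members in myofibroblasts, C3 and Serping1 passed 2-fold lower in IRI, where 19.9% of all measured genes did. They had 5 and 7 IRI counts there and so were measured only through the control library, and nothing is read from their passing. The 5 fibroblast and mural cell markers were also lower in IRI, 7.74 against 18.4 in sum, with all 5 detected in each library. The 7 proximal tubule markers summed to 10.2 in control, with Cubn and Slc5a12 at 0, and to 2.37 in IRI, with Cubn and Slc7a13 at 0. The type thus held other cells' transcripts in unlike amounts, and their part in the Serping1 difference was not tested.

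C4b was sparse. In S1 to S3 it had 15 counts in control and 43 in IRI, means of 0.00311 and 0.0132, with a log2 ratio of 0.25. Its highest level was in injured proximal tubule, 0.0593 from 8 of 135 cells. S1 and S3 of IRI had 0.0233 and 0.0203 and S2 had 0.0027, the same order of S2 below its neighbours as for C3. C4a, its near-identical neighbour, was not among the genes of the table, so reads of the pair may have been split or dropped, and the level of C4b is uncertain.

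The rest of the cascade was read from a list of 45 further genes, 28 of them in the table. In pooled macrophages 12 were measured and 2 were past 2-fold higher in IRI, where 2.46% of all genes were: Itgam, the alpha chain of complement receptor 3, with means of 0.046 and 0.244, and its beta chain Itgb2, with 0.0859 and 0.232. Itgb2 passed in neither Ccr2+ nor resident cells alone (log2 ratios of 0.90 and 0.92), and Ccr2+ cells were 32 of 326 control and 217 of 542 IRI macrophages. The list's median log2 ratio was 0.51, against -0.05 over all 7893 measured genes. In Ccr2+ macrophages 5 of 10 were higher, where 12.5% of all genes were. All 5 were receptors, as were 9 of the 10 measured, and 3 of the 5 were at 0 in control. All 5 had fewer than 10 control counts and so were measured only through the IRI library. Nothing is read from their number. C3ar1 and C5ar1, the receptors of the anaphylatoxins C3a and C5a, were at 0 in the corrected counts of the 32 control cells, and had IRI means of 0.327 and 0.567. C5ar2 was at 0 and 0.0737, Itgam at 0.219 and 0.498, and Cd93 at 0.0312 and 0.249. Cr1l, which encodes a membrane inhibitor of C3 convertases, was lower, 0.156 against 0.0461, where 6.51% of all measured genes were 2-fold lower. In proximal tubule S1 to S3 none of 18 passed 2-fold higher or lower, and the list's median was 0.07 against -0.01. A gene with means below 0.05 in both libraries could not pass after 0.05 was added, whatever its change. The count therefore says nothing about such low genes.

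Among those tubule genes, Cfb was 0.0313 in control and 0.0426 in IRI in S1 to S3 and 0.104 in injured cells. C2, the protease that joins C4b, was 0.0155 and 0.0343, with 0.0889 in injured cells. Cfi, which encodes the protease that inactivates C3b, was 0.00104 and 0.0212. The terminal-pathway chain C8a had 43 counts in control S1 to S3 and 0 in IRI, and C8g had 198 and 64. Clusterin (Clu), an extracellular chaperone that blocks the terminal complex, had the largest value of the list, 3.97 in IRI thin descending limb (tDL) cells against 0.265 in control. The tDL name covers 2 clusters, of which cluster 9 gave 420 of 440 IRI cells and cluster 11 gave 391 of 427 control cells, so that contrast sets different clusters side by side. In myofibroblasts C1ra and C1s1, the proteases of C1, were 0.258 and 0.452 in control and 0.0571 and 0.20 in IRI.

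The genes whose mean levels most resembled each member over the same 26 points were found among 7467 genes, as a description without a test. For summed C1q these were Ms4a7 (r = 0.91), Pf4 (0.86), Lilra5 (0.83), Adgre1 (0.83) and Aif1 (0.82). For Cfp they were Itgam (0.98), Ccl9 and Pilra (0.97 each), Trem2 and Clec4a3 (0.96 each). For C3 they were Cpe (0.91), Ackr3 (0.87), Epdr1 (0.85), Rarres2 (0.84) and Atp6v0e2 (0.83). Among these points C3 was above 0.1 per cell only in myofibroblasts of both libraries and in IRI S3, so its values rest mainly on few points. This search left out injured proximal tubule, which had no control cells. Also left out were Cx3cr1+ macrophages (19 IRI cells), neutrophils, proliferating proximal tubule and red blood cells, with too few cells in a library for a ratio. The values for summed C1q therefore do not include the type with the highest C1q. For Serping1, Adamts2 and Wt1 led (1.00 each), but Serping1 was above 0.01 per cell only in myofibroblasts and, barely, IRI vasculature, so these values rest mainly on the myofibroblast points.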

How the data were processed

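Kidney was digested and sequenced as single cells in 1 control and 1 IRI library. Per the submitters' processing notes, Cell Ranger 3.0.0, Seurat 3.2 and the mm9 build were used. The authors' main deposited table holds a score, SCTransform's depth-corrected counts: cell totals span 1468 to 3212, against 271 to 24680 raw UMIs. Another deposited file repeats it as a natural log, ln(value + 1), and a further one holds a residual score for 3000 genes, 6 of the 7 members among them. The deposited annotation had lost its separators. Its split matched the corrected totals in all 11759 cells, and where more than 1 split was possible (3615 cells) the first giving 200 genes or more was used. The plan had assumed raw counts, so no interval is given for a level.

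Means, shares and log2 ratios were computed per deposited cell type with Python 3.11.15, NumPy 2.4.6, SciPy 1.17.1 and pandas 2.3.3. A gene was measured in a type with at least 10 summed corrected counts over both libraries, and 2-fold was the limit for a count of genes. Cells with a UMI were read from the residuals in windows of 300 cells of like depth, where the first gap of at least 0.4 above the window's median parts them. For C3, Cfp and Serping1 windows of 150 and 600 gave the same number of cells, while for the C1q genes the result moved with the window, so values above 0 were used. The scripts were tested on simulated data. Doublets were not called, and the deposited cell types were taken as given. Named genes were the members, the wider list by role, the markers, and the 5 genes most like each member. Some genes of these lists are not reported here and were left out of the counts and sums. Members and lists were chosen with earlier results of these data known. Alternatives were other constants, scalings, depth limits, cell types and fold limits.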

Additional observations from a re-analysis of the deposited data

Results flagged for a closer look

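The change of C3 between the libraries ran in opposite directions in different cell types. The log2 ratio of IRI over control was 1.41 in proximal tubule S1 and 2.29 in S3, both higher in IRI, and -1.47 in myofibroblasts, lower in IRI. The opposite signs drew attention to these values. Each type has 1 library per group, so the difference between types was not tested. The myofibroblast value rests on 15 control and 5 IRI counts, and the intervals of its shares of cells with a C3 UMI overlapped.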

How the results depend on the processing

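No paired analysis was possible because each group has 1 library and no result comes from a test. Of 128 alternative values, 89 stayed near the reported one (within 1.5-fold for ratios and counts, within the interval for shares) and 39 moved. The C1q log2 ratio of pooled macrophages, -0.59, became 0.63 in resident cells alone, 0.048 in Cx3cr1+ cells alone and 0.27 at the control makeup. In Ccr2+ cells alone the C1q log2 ratio was 6.83. Their control cells held 1 C1q count, so the size of that ratio rests almost wholly on the IRI library. The proximal tubule C3 log2 ratio of 1.41 was 2.81 with 0.01 and 0.53 with 0.2 added to each mean, 0.66 in S2 and 2.29 in S3. The macrophage Cfp log2 ratio of 2.24 was 2.84 and 1.33 with those constants. Wider-list genes higher in IRI numbered 2, 5 and 1 in macrophages at the 2-fold, 1.5-fold and 3-fold limits, 5, 8 and 3 in Ccr2+ cells, and 0 and 2 in proximal tubule at 2-fold and 1.5-fold. The share of proximal tubule cells above 0 for C3 was 0.518% in control, against 1.39% by UMI (also with windows of 150 and 600) and 1.15% at 2000 to 4000 UMIs. In IRI it was 6.65%, against 9.48% by UMI at each window, 8.68% with at least 1000 UMIs and 7.94% at 2000 to 4000. For C1qa in IRI resident cells 56.9% became 74.6% with at least 1000 UMIs and 85.7% at 2000 to 4000. For Cfp in macrophages 4.29% in control became 8.97% with at least 1000 UMIs, and 27.3% in IRI became 32.5% by UMI at each window and 39.4% with at least 1000 UMIs. Weighting by raw UMIs moved the macrophage share of C1q from 93.9% to 94.8% in control and from 92.5% to 96.2% in IRI, the resident share from 22.3% to 7.37% and from 50.3% to 30.3%, and the IRI share of C3 in S1 to S3 from 66.5% to 55.7% and in injured cells from 21.7% to 35.5%. The causes of these moves were not tested. Raw counts per gene were not analysed here, and low genes such as C4b are limited by depth.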

Other observations

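The balance of the 3 C1q transcripts differed between the libraries in Cx3cr1+ and resident macrophages and in proximal tubule cells. In Cx3cr1+ macrophages, whose summed C1q level was similar, C1qb over C1qa was 1.10 in control and 1.30 in IRI, and C1qc over C1qa was 0.821 and 1.03. In resident macrophages C1qb over C1qa was 0.982 and 1.33, and C1qc over C1qa 0.685 and 0.841. In proximal tubule S1 to S3, where C1q was low, the ratios were 0.854 and 1.46 for C1qb and 0.66 and 0.89 for C1qc. Relative to the other 2 chains, C1qa was thus lower in IRI than in control in these 3 groups. IRI Ccr2+ cells stood at 1.57 and 0.98, with no control value to set beside them. C1qc over C1qb moved less and not one way, from 0.745 to 0.789 in Cx3cr1+ and from 0.698 to 0.631 in resident cells. These are single libraries, and a difference between the libraries cannot be told apart from one between the kidneys.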
